A study of Caenorhabditis elegans with 7 samples.

Results

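The levamisole-sensitive acetylcholine receptor of Caenorhabditis elegans body wall muscle was followed through 10 genes in embryonic A-class motor neurons. The genes are the receptor subunits unc-29, unc-38, unc-63, lev-1 and lev-8, the assembly factors ric-3, unc-50 and unc-74, the auxiliary protein gene molo-1 and the clustering gene lev-10. Every probe set of the array that its annotation assigns to 1 of these symbols was taken, whatever its value. This gave 13 of 22548 probe sets and 9 of 17118 genes, with 3 probe sets for lev-10, 2 each for ric-3 and unc-50 and 1 for each of the other 6. No probe set is annotated to unc-74, so that this gene was not analysed here.

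The samples were cells of dissociated embryos kept in culture for 24 hours and sorted by flow cytometry. A-class cells (3 arrays) came from cultures with the reporter unc-4::GFP and were sorted by its fluorescence. The unc-4 promoter marks the DA and SAB cholinergic motor neurons and the pharyngeal neuron I5 in the embryo, and the sorted fraction still held some unlabeled cells. The reference (4 arrays) was the pool of all viable cells from cultures of the wild-type strain N2 by the sample descriptions and the study's methods, although the growth text shared by all samples names unc-4::GFP animals. This pool includes body wall muscle and other neurons as well. Replicates are called biological in the labels, RNA came from pools of sorted cells, and no further genotype or treatment is given.

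At the neuromuscular junction, acetylcholine released by motor neurons opens ligand-gated channels built from several related subunits around a central pore. UNC-38, UNC-63 and LEV-8 are alpha subunits, which carry the paired cysteines of the ligand binding site, whereas UNC-29 and LEV-1 are non-alpha subunits. UNC-38 and UNC-63 also belong to a second receptor, that of the cholinergic motor neurons themselves, where their partners are ACR-2, ACR-3 and ACR-12. Before a receptor reaches the surface its subunits are folded and assembled in the endoplasmic reticulum with the help of dedicated proteins, and at the synapse it is held in clusters by extracellular scaffolds.

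Values are the deposited RMA intensities, in arbitrary units on a linear scale, and each comparison is the A-class minus the reference mean of log2 intensity with the SE from limma. A difference was called where its adjusted p (Benjamini-Hochberg over 22548 probe sets) was under 0.01 and it reached 1.7-fold. Intensities depend on the probes, so no probe set is ranked against another by its level. The arrays had median intensities of 66.9 to 70.1. Pairs of arrays shared more of their variance within the A-class (R² 0.893 to 0.947) and within the reference (0.938 to 0.969) than between these groups (0.772 to 0.876). As a check of the sort, unc-4 read 1289, 1155 and 1386 on the A-class arrays and 90.1 to 111 on the 4 reference arrays. This is a 13.2-fold difference (limma, adjusted p = 2.1e-05). Each group was hybridized on a chip lot of its own, so lot and cell type cannot be told apart, and no hybridization day held both groups. In sorted pools, more expressing cells and more RNA per cell cannot be told apart either.

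Of the 9 genes, 2 were higher in A-class cells (unc-38 and ric-3), 1 was lower (molo-1) and 6 did not pass. The shares were 22.2% higher and 11.1% lower, beside 2.21% and 3.31% of all 17118 genes. In 5 of the 9 genes every A-class array lay above every reference array and in 2 every A-class array lay below, beside 17.1% and 13.6% of all genes. Over the 13 probe sets the counts were 2 and 1, beside 2.20% higher and 3.46% lower among all probe sets. Groups did not overlap in 8 of the 13 with the A-class above and in 2 with it below, beside 16.9% and 14.0% of all probe sets. The median difference of the 9 genes was 0.57 on the log2 scale, against 0.05 for all genes. The genes were chosen with earlier results of these data known, so these shares and the median are descriptive only. The study lists unc-38, unc-63, ric-3 and a probe set of the lev-10 locus among its embryonic A-class transcripts, and that list was drawn from these arrays. Their direction here is therefore not independent evidence.

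**Figure D1:**
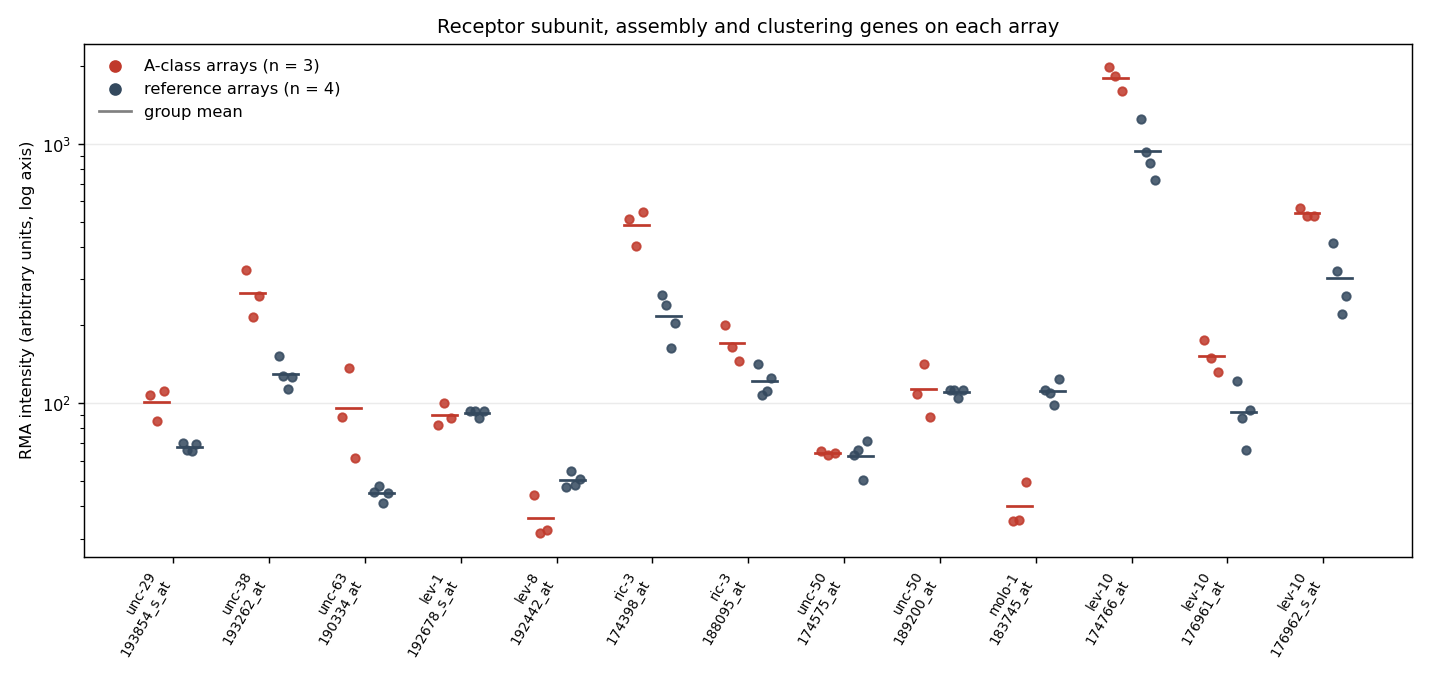
RMA intensity (arbitrary units, log axis) of the 13 probe sets on each A-class array (red, n = 3) and each reference array (dark blue, n = 4), with bars for the group means. For unc-38, ric-3, unc-63, unc-29 and lev-10 the red points all lie above the blue ones, for molo-1 and lev-8 all below, and for lev-1 and unc-50 the groups overlap.

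Among the alpha subunits, unc-38 was the clearest case. Its probe set 193262_at (locus F21F3.5) read 325, 214 and 259 on A-class replicates 1, 2 and 3, and 152, 128, 114 and 126 on reference replicates 1 to 4. The groups did not overlap, the lowest A-class array lying above the highest reference array. The means were 266 ± 55.7 (SD, n = 3) and 130 ± 16.02 (SD, n = 4), a log2 difference of 1.02 ± 0.17 (SE), or 2.03-fold (limma, adjusted p = 0.00597).

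The other alpha subunit shared by the muscle and motor neuron receptors, unc-63 (190334_at, Y110A7A.3), had the same mean difference with a wider spread. It read 88.7, 136 and 61.6 in the A-class and 45.3, 47.8, 41.3 and 44.8 in the reference. All A-class arrays were above all reference arrays, but they differed among themselves by more than the lowest of them differed from the reference. The log2 difference of 1.02 ± 0.24 (SE; 95% interval 0.47 to 1.57) did not pass (limma, adjusted p = 0.0231). SAM at a false discovery rate of 1%, as run here, did not call unc-63 either, although the study lists it. In limma the difference passed when A-class replicate 3, the dimmest of the A-class arrays for this gene, was left out (limma, adjusted p = 0.00981). Leaving out the dimmest A-class array raises the difference by itself. Without any other 1 array unc-63 did not pass (limma, adjusted p 0.0292 to 0.0578).

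For lev-8 (192442_at, C35C5.5), the alpha subunit not assigned to the motor neuron receptor, the values ran the other way. It read 44.0, 31.4 and 32.4 in the A-class and 47.5, 54.8, 48.4 and 51.0 in the reference. The groups did not overlap, with A-class replicate 1 closest to the reference. The log2 difference was -0.50 ± 0.15 (SE; 95% interval -0.84 to -0.17) and did not pass (limma, adjusted p = 0.0486).

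Neither non-alpha subunit passed. The unc-29 probe set (193854_s_at, T08G11.5) read 107, 84.9 and 111 in the A-class and 69.8, 66.0, 65.1 and 69.3 in the reference. Its reference arrays lay close together (67.6 ± 2.36, SD) and all A-class arrays were above them (101 ± 14.1, SD). The difference of 0.57 ± 0.13 (SE), or 1.48-fold, is under the 1.7-fold limit and did not pass (limma, adjusted p = 0.0190). For lev-1 (192678_s_at, F09E8.7) the A-class arrays read 82.2, 99.7 and 87.6 and the reference arrays 93.1, 93.1, 87.5 and 93.1. These ranges overlap, and the log2 difference was -0.03 ± 0.11 (SE; limma, adjusted p = 0.858). Its 95% interval was -0.29 to 0.22. The reference spread behind this interval rests on repeated values, since 3 of the 4 reference arrays carry the same deposited value. Both probe sets carry the suffix _s_at, which on this array marks probes that can match several transcripts.

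Set against each other on the same array, pairs of subunit probe sets shifted to different degrees. These differences of log2 intensity are not subunit ratios in the cell, and they are given without a test since they follow from the values above. The unc-38 minus lev-1 difference was 1.98, 1.10 and 1.56 on the A-class arrays and 0.71, 0.46, 0.38 and 0.44 on the reference arrays. The unc-38 minus unc-29 difference was 1.60, 1.34 and 1.22 against 1.12, 0.95, 0.80 and 0.86, so that the groups did not overlap for either pair. By contrast, unc-63 minus unc-38 averaged -1.53 in both groups, with an SD of 0.77 over the A-class arrays and 0.15 over the reference arrays. On A-class replicate 2 unc-63 had its highest value and unc-38 its lowest of the A-class arrays.

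**Figure D2:**
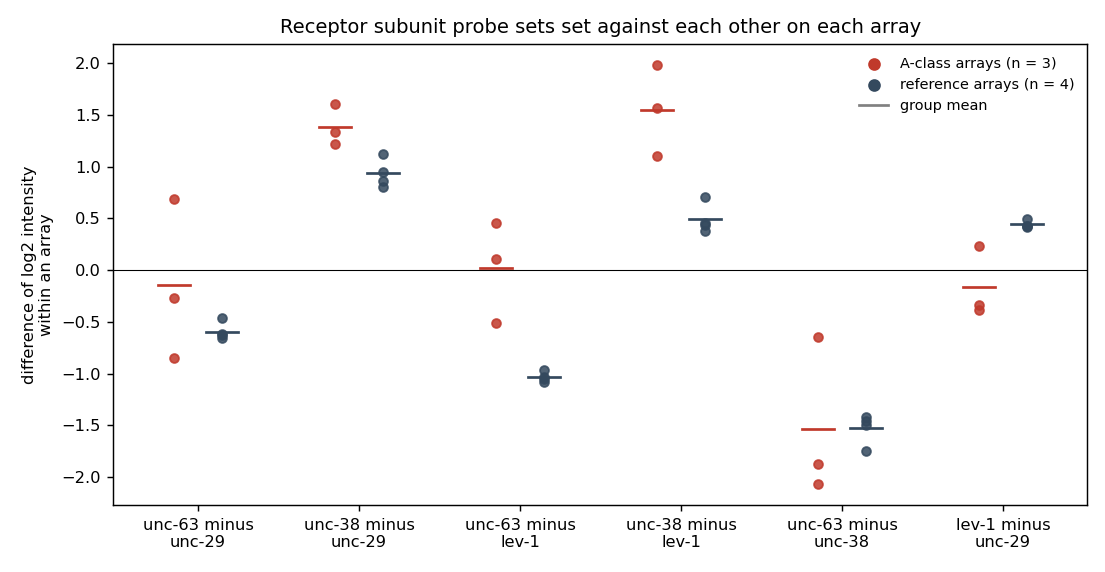
Difference of log2 intensity between 2 subunit probe sets on the same array, for 6 pairs, on A-class (red, n = 3) and reference arrays (dark blue, n = 4), with bars for group means. The pairs unc-38 minus lev-1, unc-38 minus unc-29 and unc-63 minus lev-1 are higher on every A-class array, lev-1 minus unc-29 is lower on every A-class array, and the remaining pairs, both with unc-63, overlap.

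Of the assembly factors, ric-3 encodes a transmembrane chaperone of the endoplasmic reticulum that acts on several acetylcholine receptors, in neurons as well as in muscle. Its probe set 174398_at (T14A8.1) read 513, 402 and 547 in the A-class and 261, 239, 163 and 203 in the reference. No reference array reached the dimmest A-class array. The means were 487 ± 75.7 (SD, n = 3) and 216 ± 43.0 (SD, n = 4), a log2 difference of 1.18 ± 0.19 (SE), or 2.27-fold (limma, adjusted p = 0.00537). The other ric-3 probe set, 188095_at, read 201, 164 and 145 against 142, 107, 111 and 125. It gave a smaller difference of 0.48 ± 0.16 (SE) that did not pass (limma, adjusted p = 0.0682), although all A-class arrays were above all reference arrays here too.

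For unc-50 (T07A5.2), a conserved membrane protein needed for surface delivery of the levamisole receptor, both probe sets overlapped between groups. Probe set 189200_at read 108, 141 and 88.6 in the A-class and 112, 112, 104.3 and 112 in the reference, a log2 difference of 0.01 ± 0.16 (SE; 95% interval -0.36 to 0.38; limma, adjusted p = 0.970). Probe set 174575_at read 65.5, 62.9 and 64.1 against 62.9, 66.0, 50.3 and 71.7, a difference of 0.04 ± 0.14 (SE; limma, adjusted p = 0.847). With differences this close to 0, their sign turned under some alternatives.

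The gene that fell, molo-1 (183745_at, F09F7.1), encodes a single-pass membrane protein that associates with the levamisole receptor and increases its activity in muscle. It read 35.1, 35.4 and 49.7 in the A-class and 112, 110, 98.5 and 124 in the reference, so that the groups were far apart. The means were 40.1 ± 8.37 (SD, n = 3) and 111 ± 10.4 (SD, n = 4), a log2 difference of -1.49 ± 0.16 (SE). This is 2.80-fold lower in A-class cells (limma, adjusted p = 0.00117). All A-class values of molo-1 lie under the lowest array median (66.9), so the size of the fold depends on low intensities. With 50 added before log2 the difference was -0.84 and still passed (limma, adjusted p = 0.00281).

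LEV-10 is a transmembrane protein with CUB domains that muscle cells use to cluster the levamisole receptor at synapses. The 3 lev-10 probe sets gave a like picture. Probe set 174766_at read 1971, 1826 and 1596 in the A-class and 1250, 927, 840 and 725 in the reference, a log2 difference of 0.97 ± 0.19 (SE; limma, adjusted p = 0.0119). Probe sets 176962_s_at and 176961_at differed by 0.87 ± 0.21 and 0.75 ± 0.21 (SE; limma, adjusted p = 0.0237 and 0.0418). None passed, although in each all A-class arrays were above all reference arrays. Reference replicate 1 was the brightest reference array in all 3, so leaving it out raises the differences by itself. Without it 174766_at and 176962_s_at were called higher (limma, adjusted p = 0.00462 and 0.00759). Without any other 1 array neither passed (limma, adjusted p 0.0284 to 0.0392 and 0.0432 to 0.0654). Probe set 174766_at was also called by SAM at a false discovery rate of 1%, which called 516 of all 17118 genes higher. It passed as well when the dimmest 30% of probe sets were left out (limma, adjusted p = 0.00949). The lev-10 locus overlaps eat-18, the gene of a small protein of pharyngeal receptors, in the RefSeq annotation, and the older annotation used by the study gives these probes to eat-18. No probe set is annotated to eat-18 alone here, so transcripts of lev-10 and eat-18 cannot be told apart.

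**Figure D3:**
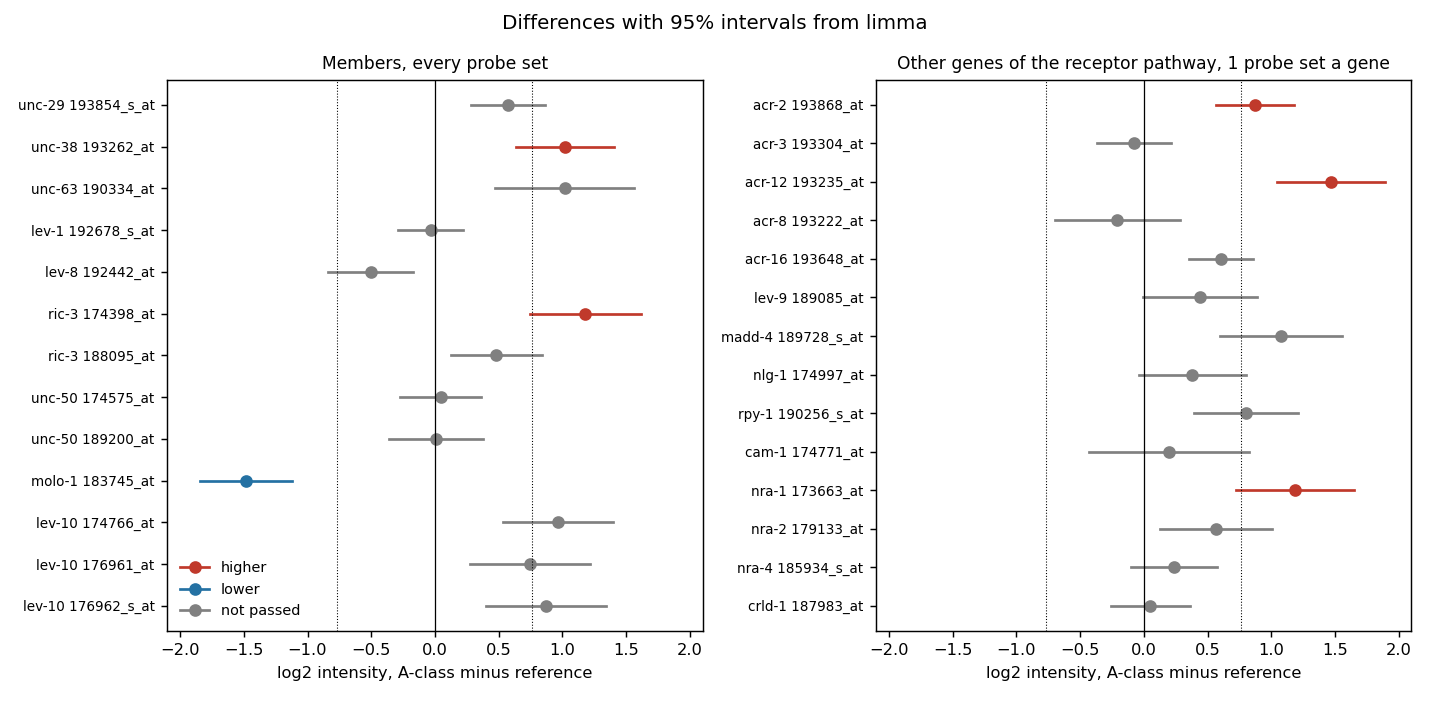
Log2 difference of intensity, A-class minus reference, with its 95% interval from limma, for the 13 probe sets (left) and for 14 other genes of the receptor pathway (right). Red marks transcripts called higher, blue those called lower and grey those that did not pass, and dotted lines mark 1.7-fold. Of the 13, unc-38 and 1 of the ric-3 probe sets are red and molo-1 is blue, and at right acr-2, acr-12 and nra-1 are red.

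The calls rest on few arrays. The fluidics module was the only recorded batch that held both groups. In module 1 (2 arrays a group) the log2 differences were 0.77 for unc-38, 1.03 for ric-3 and -1.49 for molo-1. In module 2 (1 array a group, without a test) they were 1.35, 1.10 and -1.64. The groups did not overlap for these probe sets, so any part of the arrays gives the same sign, and the sign is no further support. With the module as a block none of unc-38, ric-3 and molo-1 passed (limma, adjusted p = 0.0345, 0.0259 and 0.0105). That fit in effect leaves out reference replicate 3, the only array of its module. With hybridization day as a random block molo-1 passed (limma, adjusted p = 0.00402), and unc-38 and ric-3 did not (0.0218 and 0.0254). The lev-10 probe sets 174766_at, 176962_s_at and 176961_at passed in neither fit. Their adjusted p (limma) were 0.0620, 0.0765 and 0.109 with the module block and 0.0335, 0.0855 and 0.143 with the day block. For unc-63 they were 0.0957 and 0.0540. Left out in turn, 5 of the 7 arrays ended the call of unc-38 (reference replicates 2, 3 and 4 and A-class replicates 1 and 3; adjusted p up to 0.0244) and the same 5 ended that of ric-3 (adjusted p up to 0.0245), while molo-1 passed without any 1 array (adjusted p 0.00268 to 0.00689). Reference replicate 3 was the dimmest reference array in 10 of the 13 probe sets, as against 24% of all probe sets. Without this array the log2 differences were 0.96 for unc-38, 1.05 for ric-3 and -1.54 for molo-1.

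**Figure D4:**
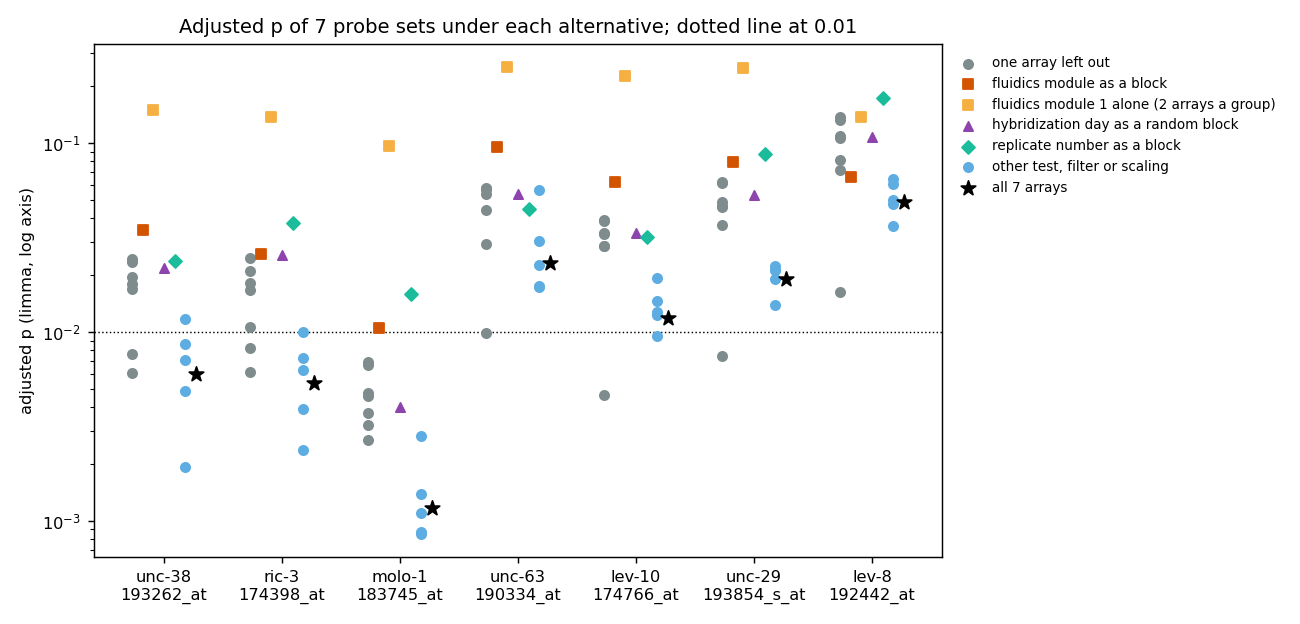
Adjusted p from limma (log axis, dotted line at 0.01) of 7 probe sets over all 7 arrays (black star) and under alternatives: 1 array left out (grey), the fluidics module as a block or module 1 alone (orange), hybridization day as a random block (purple), replicate number as a block (green) and another variance model, filter or scaling (light blue). The grey points of molo-1 all lie below 0.01, those of unc-38 and ric-3 lie on both sides, and all module and replicate block points lie above.

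The partners of UNC-38 and UNC-63 in the motor neuron receptor were measured beside them. Of acr-2, acr-3 and acr-12, 2 of 3 were higher. The non-alpha subunit acr-2 (193868_at) read 119, 125 and 125 in the A-class and 73.4, 76.8, 56.7 and 63.5 in the reference, a log2 difference of 0.87 ± 0.13 (SE; limma, adjusted p = 0.00447). A-class replicates 2 and 3 carry the same acr-2 value (124.645), so its A-class spread rests on 2 distinct values. The alpha subunit acr-12 (193235_at) read 1364, 844 and 1202 against 475, 389, 351 and 400, a difference of 1.47 ± 0.19 (SE; limma, adjusted p = 0.00213). In both the groups were well apart. With the fluidics module as a block neither passed (limma, adjusted p = 0.0257 and 0.0195), and the call of acr-2 ended when any of the 7 arrays but the reference replicate 1 array was dropped (adjusted p at most 0.0190), that of acr-12 without reference replicate 2 or A-class replicate 3 (up to 0.0118). The acr-3 probe set, among the dimmest 30% of the array, read 35.3 to 38.2 in the A-class and 34.3 to 45.1 in the reference and gave -0.08 ± 0.13 (SE; limma, adjusted p = 0.691).

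Of the other muscle subunits, 0 of 2 passed in limma or SAM, and 1 had an unadjusted p under 0.05 (limma), beside 7753 of all 22548 probe sets. The log2 difference of acr-8, which can take part in levamisole receptors, was -0.21 ± 0.21 (SE; limma, adjusted p = 0.519), with overlapping groups. For acr-16, the subunit of the levamisole-insensitive muscle receptor, all A-class arrays (48.9 to 58.1) were above all reference arrays (34.1 to 36.2). Its adjusted p of 0.00859 (limma) was under the limit, but the 1.52-fold difference was not large enough to be called, and this probe set too is among the dimmest 30%.

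Of 6 other organizers of receptor clusters and the junction, 5 were measured and 0 passed in limma. An unadjusted p under 0.05 (limma) was found for 2, beside 7753 of all 22548 probe sets. SAM called 2 higher, namely madd-4 and rpy-1, beside 516 of all 17118 genes. The secreted organizer madd-4, which cholinergic motor neurons release, came closest, with a log2 difference of 1.08 ± 0.21 for 189728_s_at (SE; limma, adjusted p = 0.0116). Without A-class replicate 2, its dimmest A-class array, the adjusted p was 0.00281, and without any other 1 array 0.0167 to 0.0467 (limma). Leaving out the dimmest A-class array raises the difference by itself here too. The other madd-4 probe set overlapped between groups (0.86 ± 0.41, SE). The gene of the rapsyn homolog, rpy-1, gave 0.80 ± 0.18 (SE; limma, adjusted p = 0.0191). The values for the neuroligin gene nlg-1 were 0.38 and 0.39 in its 2 probe sets. For lev-9, whose product is secreted from muscle and acts with LEV-10, the 2 probe sets disagreed (0.44 and -0.57), as they did for the Ror receptor gene cam-1 (0.20 and -0.66). No probe set is annotated to oig-4.

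Of 6 further assembly and receptor-associated genes, 4 were measured and nra-1 was higher. NRA-1, a copine that associates with the levamisole receptor, read 992, 1107 and 1352 on 173663_at in the A-class and 656, 569, 413 and 410 in the reference, a log2 difference of 1.19 ± 0.20 (SE; limma, adjusted p = 0.00666). Its other probe set, 188777_s_at, overlapped between groups and gave -0.02 ± 0.18 (SE; limma, adjusted p = 0.952). The call of nra-1 was lost with the module as a block (limma, adjusted p = 0.0405) and on dropping each array in turn, except that of reference replicate 1 (at most 0.0290). The genes nra-2 and nra-4, which act on subunit composition in the endoplasmic reticulum, gave 0.57 and 0.23 and did not pass (limma, adjusted p = 0.0762 and 0.293). The value for crld-1, an endoplasmic reticulum factor of receptor assembly, was 0.05, and no probe set is annotated to emc-6 or eat-18.

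Markers of the cell types in these pools differed between the groups as well. Of 12 neuron-wide genes 5 were higher in A-class cells (ric-4, ric-19, unc-31, unc-10 and sng-1), with log2 differences of 1.30 to 2.40. Differences were positive in 10 of the 12 and negative in egl-3 (-0.17) and unc-64 (-0.74), and for unc-64 all A-class arrays were below all reference arrays, though it did not pass. The summed intensity of all 12 was 9614 to 11049 against 4435 to 7608. Of the 5 higher genes, ric-19, unc-10 and sng-1 passed without any 1 array, unc-31 was lost without any (limma, adjusted p 0.0113 to 0.0219), and ric-4 was lost without reference replicate 2 or A-class replicate 1 or 3 (up to 0.0133). Of 4 cholinergic genes, unc-17 (1.67) and unc-3 (2.16) were higher. Of 12 body wall muscle genes 0 passed in limma, 8 had an unadjusted p under 0.05 and SAM called 2 lower. Differences were negative in 9, and the median was -0.56. Their summed intensity was 1589 to 2871 in the A-class against 3146 to 4663 in the reference. In such sums, here and for the neuron genes, the brightest probe sets weigh most. Among the muscle genes the brightest was pat-10, with means of 443 in the A-class and 1134 in the reference. The muscle myosin genes unc-54 and myo-3 were at 114 to 141 and 70.8 to 87.7 on the A-class arrays and at 185 to 340 and 105 to 159 on the reference arrays, and the titin-related gene unc-22 went the other way (0.92). The muscle regulator hlh-1, among the dimmest 30% of the array, was at 21.9 to 28.6 and 34.3 to 37.3. The largest falls in this list were those of mup-2 (-1.58) and pat-10 (-1.42), which did not pass in limma either. Pharyngeal muscle (0 of 5), hypodermis (0 of 6), intestine (0 of 6) and GABA neuron genes (0 of 4) gave no call in limma, with 2, 5, 2 and 2 genes at an unadjusted p under 0.05, and SAM called 1 hypodermis gene higher. Differences were negative in 4, 3, 4 and 4 genes of these lists. Among all 22548 probe sets 7753 had an unadjusted p under 0.05 (limma), and SAM called 516 of all 17118 genes higher and 801 lower. Of 5 germ line genes gld-1 was higher (1.57), a call lost without reference replicate 2 or any 1 of the A-class arrays (limma, adjusted p up to 0.0164). How far the shift in cell types enters the values of unc-38, ric-3 or molo-1 was not tested.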

How the data were processed

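Affymetrix C. elegans arrays were hybridized with biotin-labeled cRNA made from 100 ng total RNA in a 2-round amplification. The authors deposited linear intensities normalized by RMA, named in the submitters' processing notes (version and array set: not given in the sources), with 1 value per probe set and array. Fluidics module, lot and day were read from the deposited hybridization records. No column of the value table lacked a sample.

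The log2 of each intensity was compared with limma 3.58.1 (R 4.3.3, lmFit and eBayes, no covariates) over 22548 probe sets. The steps were tested on simulated data. Symbols came from the platform annotation (20766 probe sets with 1 symbol, 887 with several, 895 with none). A gene was represented by its _at probe set, then _s_at, then the highest mean. Every probe set of the members, unc-4 and all genes of the pathway lists were named, and of marker lists those that passed. The markers unc-54, myo-3, hlh-1, unc-22, mup-2, pat-10, egl-3 and unc-64 were named after their values were seen. Members and lists were chosen with earlier results of these data known. Replicates are separate in the labels, and the number of arrays limits precision. Alternatives included SAM at a 1% false discovery rate, a 1.5-fold limit, an adjusted p of 0.05, no dimmest 30%, quantile normalization again, median centering, log2 of the value plus 50, other probe set rules, blocks for replicate number, module and day, and each array left out. No sequence was used here. Figures were drawn with matplotlib 3.10.9.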

Additional observations from a re-analysis of the deposited data

Results flagged for a closer look

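In 2 of 33 sets of 4 reference arrays tested, 1 array lay far from the other 3, and chance gives about 1 in 20. Both were reference replicate 3: for lev-1 (192678_s_at) it read 87.5 where the others all read 93.1, and for unc-50 (189200_at) it read 104.3 where the others all read 112. The gap divided by the range was 1 in each, because the other 3 arrays carry the same deposited value. Among all values deposited, 802 of 22548 probe sets (3.56%) hold 1 value on at least 3 of the 4 reference arrays, equal to 6 decimals. The spread of lev-1 and unc-50 within the reference therefore rests on 2 distinct values.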

How the results depend on the processing

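In all, 21 alternatives were run. Of the genes followed, 4 were higher at an adjusted p of 0.05 (unc-63 and lev-10 joined unc-38 and ric-3) and 1 with log2 of the value plus 50 (ric-3). With the replicate block, the module block, module 1 alone or hybridization day as a random block 0 were higher. In these 4 settings 7, 7, 4 and 7 of 9 had an unadjusted p under 0.05 in limma. Among all 17118 genes 4239, 4945, 3692 and 4601 did so in the same settings. The lower gene, molo-1, was lost (0 lower) with the replicate block, the module block and module 1 alone. Leaving out 1 array gave 0 to 3 higher and 1 lower. Of all genes, 685 were higher and 1121 lower at an adjusted p of 0.05, 187 and 252 with log2 of the value plus 50, 69 and 78 with the replicate block, 73 and 81 with the module block, 0 and 0 in module 1 alone (3692 at an unadjusted p under 0.05), 141 and 182 with day as a random block, and 358 lower with only _at probe sets. Leaving out 1 array gave 135 to 356 higher and 173 to 543 lower. Adding 50 before log2 moved molo-1 to -0.84.

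The sign turned for lev-1 with quantile normalization again (0.055), in module 1 alone (0.0058) and without A-class replicate 1 (0.028; range without 1 array -0.11 to 0.028). It turned for unc-50 174575_at with the module block (-0.058), in module 1 alone (-0.080) and without reference replicate 3 (-0.058; range -0.058 to 0.11), and for unc-50 189200_at with the module block (-0.014) and without reference replicate 3 or A-class replicate 2 (range -0.17 to 0.17). In module 1 alone acr-3 (0.020) and acr-8 (0.15) turned. For nra-1 188777_s_at the sign turned with the replicate block (0.0072) and without reference replicates 1 (0.022) or 4 (0.0072) or A-class replicates 2 (0.0050) or 3 (range -0.21 to 0.15). For crld-1 it turned with quantile normalization again (171928_x_at, -0.0024), and for 187983_at with the module block (-0.033), in module 1 alone (-0.036) and without reference replicate 3 (-0.033; range -0.033 to 0.12) or A-class replicate 2 (-0.013). For the marker egl-3 it turned without reference replicate 1 (0.026) or A-class replicate 3 (0.011; range without 1 array -0.34 to 0.026). None of these differences passed, and the cause was not tested.

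Deviations of same-numbered arrays correlated at 0.03, -0.12 and -0.05, and those of arrays with unlike numbers at -0.30 to 0.27. With so few arrays these values cannot decide whether same-numbered arrays belong together. The labels name no pairs, so the replicate block (3 pairs) was run only as an alternative. It gave adjusted p of 0.0238 for unc-38, 0.0377 for ric-3 and 0.0158 for molo-1. Chip lot as a random block was not run, since each group lies in 1 lot of its own. The number of arrays limits the precision.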
